A study of Mus musculus with 4 samples.

Results

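The genes described here take up, bind, activate, store and oxidise fatty acids. They were 33 listed genes, chosen by name for their roles. Of these, 31 of the 19938 genes on the array were measured by a probeset with exactly 1 gene symbol. Acsl3 shared its probeset with Utp14b and Acsl1 had no probeset under its symbol in the annotation used, so neither is given a value. Their transcripts were read in macrophages grown from mouse bone marrow, on 4 Affymetrix whole-transcript arrays, 1 for each of 4 groups, with 200 ng of total RNA per array. The groups were BALB/c wild-type cells in medium, BALB/c wild-type cells with IL-4, 4get/Stat6-/- cells in medium and 4get/Stat6-/- cells with IL-4. All were differentiated for 7 days with 10% L929 supernatant, a source of M-CSF, then cultured for 24 h and sorted, to a stated purity of 99%, for the macrophage surface protein that Adgre1 encodes. The sample protocols give IL-4 at 10 µg/mL and the series text gives 10 mg/mL, and which unit was meant is not settled.

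Stat6 encodes the transcription factor that carries the signal of the IL-4 receptor to the nucleus, and 4get is a reporter allele of the IL-4 gene. The wild-type label names BALB/c and no 4get allele, so loss of Stat6, the reporter and any other difference between these mouse lines cannot be told apart. The labels give neither the age of the mice nor how many were pooled. With 1 array per group there is no replicate check on any difference, and no p-value was computed. Signals are given on the log2 scale of RMA, the method that made them. Rose, fell and changed are used of a gene for which 2 arrays differed by at least 1 on the log2 scale, which is 2-fold, and the higher array reached a floor of 2.52, the median over single-gene probesets. All 31 measured genes reached the floor on at least 1 array, and 30 reached it on all 4. Stat6 itself was at 7.34 untreated and 6.68 after IL-4 in wild type, and at 4.54 and 4.25 in Stat6-/- cells, so both Stat6-/- arrays lay below both wild-type arrays.

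Fatty acids enter a macrophage through surface proteins such as CD36 or are freed from lipoproteins by lipoprotein lipase. Inside the cell they are carried by binding proteins, joined to coenzyme A, and either stored as triglyceride in droplets or moved into mitochondria on carnitine, where the beta-oxidation spiral shortens them and passes electrons to the respiratory chain. Fatty acid oxidation has been studied as a feature of macrophages activated by IL-4, and several of these genes are known targets of the PPAR nuclear receptors.

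Among the enzymes of the oxidation spiral, of unsaturated bonds, of electron transfer and of peroxisomes, Echs1 had the largest span over the 4 arrays, 0.69. A span under 1 was not particular to these enzymes. It was seen in 26 of the 31 members, including genes of uptake, mitochondrial entry and storage. The differences past 2-fold lay in genes of uptake, mitochondrial entry and storage. Cpt1a and Plin2 fell with IL-4 in wild-type cells. Cd36 and Lpl were lower in Stat6-/- cells in both cultures. Fabp5 rose with IL-4 in Stat6-/- cells, by 1.03, just past the rule, while its difference in wild type was -0.77, short of it. These 5 genes were the members whose 4 signals spanned at least 1 on the log2 scale, 16.1% of the 31, against 15.5% of the 10798 genes with signal. The median span was 0.53 over the members and 0.56 over all genes with signal, so both the share and the span were close to those of all genes.

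**Figure D1:**
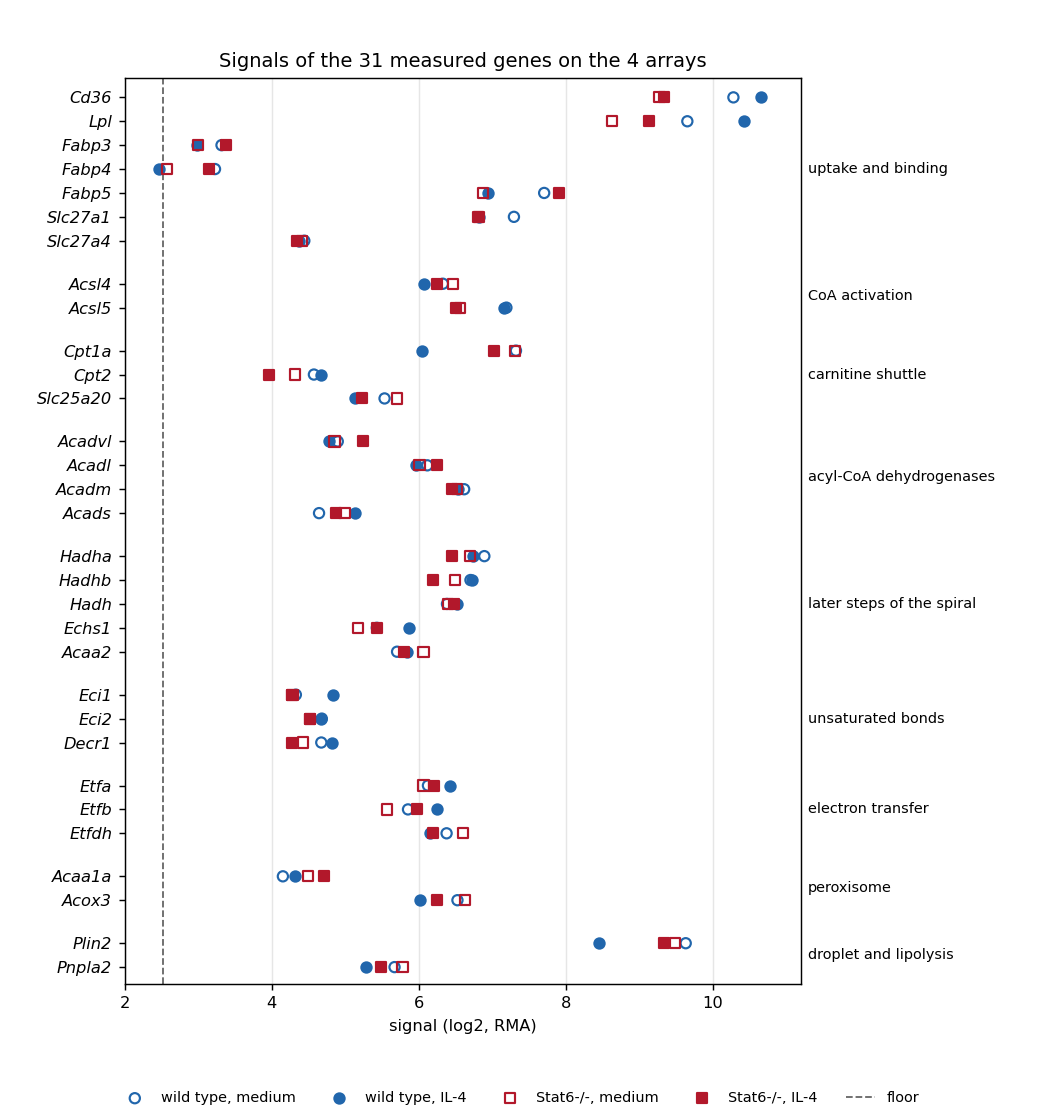
Signal of each of the 31 measured genes (log2, RMA) on the 4 arrays, ordered by role: circles are wild type, squares are Stat6-/-, open symbols are medium, filled symbols are IL-4, and the dashed line is the floor of 2.52. Positions are to be compared along a row only; the rows with separated symbols are those of Cd36, Lpl, Fabp5, Cpt1a and Plin2, and the other 26 genes each lie within 1 unit.

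Among the genes of uptake, Cd36 encodes a scavenger receptor and fatty acid translocase of the cell surface. Its signal was 10.28 untreated and 10.65 after IL-4 in wild type, and 9.28 and 9.34 in Stat6-/- cells. Both wild-type arrays were higher than both Stat6-/- arrays. The difference, Stat6-/- minus wild type, was -1.005 in medium, or 2.01-fold lower, and -1.31 with IL-4, or 2.49-fold lower. IL-4 itself moved the signal by 0.37 in wild type and by 0.063 in Stat6-/- cells, neither past the rule.

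Lpl encodes lipoprotein lipase, which frees fatty acids from circulating triglyceride. Its signals were 9.66 untreated and 10.43 after IL-4 in wild type, and 8.63 and 9.14 in Stat6-/- cells. The groups were ordered as for Cd36, with both Stat6-/- arrays lowest. The difference between the genotypes was -1.03 in medium, or 2.04-fold lower in Stat6-/- cells, and -1.29 with IL-4, or 2.45-fold lower. The IL-4 difference was 0.77 in wild type, past 1.5-fold but not 2-fold, and 0.51 in Stat6-/- cells. The difference of Cd36 in medium lay just past the rule. Over 8 alternative settings it ran from -1.07 to -0.88 and kept the call in 5 of them, and that of Lpl ran from -1.09 to -0.90 and kept it in 6. Settings that alter the floor or average probesets cannot move a gene with 1 probeset well above the floor, such as Cd36, Lpl, Cpt1a and Plin2. Of the others, Cd36 lost it with quantile normalization applied again, the intensity trend removed and an offset of 16 on the linear scale. Lpl lost it in the first 2 of these. With IL-4 both genes kept the call in 8 of 8.

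In medium, 2 of the 31 members, Cd36 and Lpl, were lower in Stat6-/- cells, or 6.45%, against 1.15% of the 10299 genes that could have passed, and 0 were higher, against 0.301%. With IL-4 the same 2 members were lower, against 4.83% of 10433 genes, and 0 were higher, against 4.01%. Both comparisons of genotype use arrays of the same 2 mouse lines. Of all genes, 49 were lower in Stat6-/- cells in both cultures by this rule, or 0.454% of those with signal. At 1.5-fold, Acsl5, Fabp4 and Fabp5 were also lower in medium, which made 5 members, or 16.1%, against 7.89% of genes. None was higher, against 2.92%. With IL-4, 4 were lower at 1.5-fold, Cd36, Lpl, Acsl5 and Cpt2, or 12.9%, against 12.4%, and 4 were higher, Fabp4, Fabp5, Cpt1a and Plin2, against 10.6%.

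The 250 bases before the RefSeq start of Cd36 are shown because Cd36 was past the rule in both comparisons of genotype (GRCm38.p6, chr5:17835897-17836146, minus strand). Capitals here and in the other promoters mark matches to AGGTCA or its reverse complement TGACCT, the core site of PPARs and related nuclear receptors. This motif was chosen after the promoters were seen, and 14.0% of 32851 windows of this length hold it.
Cd36: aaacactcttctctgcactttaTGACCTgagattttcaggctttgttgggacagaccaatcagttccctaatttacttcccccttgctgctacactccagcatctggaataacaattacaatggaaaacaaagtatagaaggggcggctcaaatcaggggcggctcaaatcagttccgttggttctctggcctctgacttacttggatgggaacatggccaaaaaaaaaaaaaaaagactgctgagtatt
The match begins 228 bases before the start. It is a match of letters only, and nothing about binding was measured.

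Fabp3, Fabp4 and Fabp5 encode small proteins that carry fatty acids in the cytosol. Fabp5 was at 7.71 untreated and 6.94 after IL-4 in wild type, and 6.88 and 7.91 in Stat6-/- cells. The highest signals were therefore those of wild type in medium and of Stat6-/- with IL-4. With IL-4, Fabp5 rose by 1.03 in Stat6-/- cells, or 2.05-fold, and the difference was -0.77 in wild type. A second Fabp5 probeset gave 0.997 and -0.88 for the same differences, so its rise in Stat6-/- cells lay just short of the rule. With IL-4, Stat6-/- minus wild type was 1.10 on this second probeset, past the rule, and 0.97 on the first, short of it. Which of these 2 comparisons passed thus depended on the probeset. Both probesets list the same transcripts and Fabp5 has a pseudogene copy, so they are no independent check and related sequences may share their signal.

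Fabp4, which is also an adipocyte protein, lay low, at 3.23 untreated and 2.47 after IL-4 in wild type, and 2.57 and 3.14 in Stat6-/- cells. As for Fabp5, wild type in medium and Stat6-/- with IL-4 were the high arrays, and the wild-type array with IL-4 was under the floor. Fabp3, the heart-type protein, was near the floor too, at 3.32, 2.99, 2.996 and 3.38 in the same order. A second Fabp3 probeset read 3.30, 2.67, 2.99 and 3.26. For these 3 genes the IL-4 difference was below 0 in wild type and above 0 in Stat6-/- cells. Effects of unequal sign, either way round, were seen in 11 of the 31 members and in 38.8% of all genes with signal.

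The wild-type IL-4 difference minus the Stat6-/- one was -1.80 for Fabp5 and -1.33 for Fabp4, both past the rule, and -0.71 for Fabp3. This contrast takes in 4 arrays, so the same size is a looser rule than between 2 arrays. Fabp4 was past the rule in no comparison of 2 arrays. With signals under the floor raised to it, the contrast for Fabp4 was -1.28. Fabp5 kept the call in this contrast in 8 of 8 alternative settings. Fabp4 kept it in 6 and was at -0.41 with an offset of 16 added on the linear scale. In the RefSeq gene table of GRCm38.p6, Fabp4 and Fabp5 are neighbours on chromosome 3, with Pmp2 and Fabp9 of the same family between them. Both of those, named after their values were seen, were under the floor on all 4 arrays, Pmp2 at 1.87 or less and Fabp9 at 1.33 or less.

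The transporters Slc27a1 and Slc27a4 couple uptake to activation. Slc27a1 was at 7.30 untreated and 6.82 after IL-4 in wild type, and 6.82 and 6.81 in Stat6-/- cells, so wild type in medium stood above the others, which lay together. Slc27a4 had the smallest span of the uptake genes, 0.10, with signals from 4.35 to 4.44.

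Acyl-CoA synthetases trap fatty acids in the cell as coenzyme A esters. Acsl5 was at 7.19 untreated and 7.17 after IL-4 in wild type, and 6.56 and 6.51 in Stat6-/- cells. It was lower in both Stat6-/- arrays, by differences of -0.63 and -0.66 that passed 1.5-fold but not 2-fold, and differed by -0.027 and -0.055 between cultures. Acsl4, which prefers arachidonic acid, was at 6.33, 6.07, 6.46 and 6.25 in the same order, with the IL-4 array lower in each genotype and neither difference past the rule.

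Cpt1a encodes carnitine palmitoyltransferase 1A, the outer mitochondrial enzyme that controls the entry of long-chain fatty acids. It was at 7.32 untreated and 6.04 after IL-4 in wild type, and 7.31 and 7.02 in Stat6-/- cells. The wild-type array with IL-4 stood below the other 3, which lay between 7.02 and 7.32. Cpt1a fell by 1.28 with IL-4 in wild type, or 2.43-fold, in 8 of 8 alternatives, and differed by -0.29 in Stat6-/- cells. The difference between these effects, -0.99, lay just short of the rule and passed it in 1 of 8 alternatives. With IL-4, the Stat6-/- array was above the wild-type array by 0.98, which also lay just short and passed in 2 of 8.

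The later genes of the shuttle did not pass the rule in any comparison. Cpt2, the inner membrane enzyme that returns the fatty acid to coenzyme A, was at 4.57 untreated and 4.67 after IL-4 in wild type, and 4.32 and 3.96 in Stat6-/- cells. Both Stat6-/- arrays were lower, by -0.71 with IL-4, past 1.5-fold but not 2-fold. Slc25a20, the carnitine-acylcarnitine carrier, was at 5.54, 5.14, 5.70 and 5.23 in the same order, with IL-4 differences of -0.40 and -0.47, alike in both genotypes and not past the rule.

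Plin2 encodes perilipin 2, the coat protein of lipid droplets in macrophages. It was at 9.63 untreated and 8.45 after IL-4 in wild type, and 9.49 and 9.34 in Stat6-/- cells. As with Cpt1a, the wild-type array with IL-4 was set apart below the others. Plin2 fell by 1.18 with IL-4 in wild type, or 2.27-fold, in 8 of 8 alternatives, and differed by -0.15 in Stat6-/- cells. The difference between both effects was -1.04, past the rule, and kept the call in 6 of 8 alternatives. Pnpla2, the triglyceride lipase of the droplet surface, was at 5.67, 5.28, 5.78 and 5.49 in the same order, lower with IL-4 by -0.39 and -0.29, neither past the rule.

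The promoters of Cpt1a (GRCm38.p6, chr19:3323051-3323300, plus strand) and Plin2 (chr4:86670060-86670309, minus strand) are shown because these were the members that fell with IL-4 in wild type. Each is the 250 bases before the RefSeq start.
Cpt1a: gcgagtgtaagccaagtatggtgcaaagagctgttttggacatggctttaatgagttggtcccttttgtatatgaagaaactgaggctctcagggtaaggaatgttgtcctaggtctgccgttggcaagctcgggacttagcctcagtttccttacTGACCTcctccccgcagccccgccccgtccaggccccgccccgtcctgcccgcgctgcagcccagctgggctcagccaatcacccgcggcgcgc
Plin2: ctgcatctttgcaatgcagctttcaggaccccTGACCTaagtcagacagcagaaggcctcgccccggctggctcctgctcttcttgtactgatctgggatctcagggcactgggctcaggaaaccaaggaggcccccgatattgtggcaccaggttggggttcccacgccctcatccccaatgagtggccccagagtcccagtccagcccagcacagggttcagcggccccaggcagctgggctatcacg
The matches begin 94 bases before the start in Cpt1a and 218 in Plin2. Single sites were found in 6 of 31 member windows from 28 genes, or 19.4%, those of Acadm, Acadvl, Cd36, Cpt1a, Echs1 and Plin2, against 14.0% of 32851 windows of the same length. Neither AGGTCA repeated after a gap of 1 base nor the palindrome of TTC and GAA spaced by 4 bases, the type that STAT6 binds, was found in these 31 windows, searched on both strands. They occurred in 0.0335% and 5.85% of all windows. No promoter was available for Lpl, Fabp4, Fabp5, Decr1 or Acaa2, so these were not searched. The 31 windows include those of Acsl1 and Acsl3, which have no signal value, and are not 1 for each of the 31 measured genes.

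In all, 2 of the 31 members fell with IL-4 in wild type, Cpt1a and Plin2. That is 6.45%, against 6.78% of the 10282 genes that could have passed, so the share was near that of all genes. None of the 31 was higher by the rule, against 2.96% of genes. The median IL-4 difference over the members was -0.074, with -0.11 over all genes, and the members' median turned to 0.084 when quantile normalization was applied again. That normalization moved the median of all genes to 0.021 and the calls of all genes from 304 higher and 697 lower to 403 and 488. In Stat6-/- cells 1 of 31 members rose, Fabp5, or 3.23%, against 0.24% of 10410 genes, and 0 fell, against 0.115%. The Fabp5 call was lost under 1 of 8 alternatives, the offset of 16, at 0.94. The second Fabp5 probeset, at 0.997, was short of the rule. The members' median in Stat6-/- cells was -0.055, with -0.046 over all genes. At 1.5-fold, 1 member was higher in wild type, Lpl, or 3.23%, against 9.05% of genes, and 4 were lower, Fabp4, Fabp5, Cpt1a and Plin2, or 12.9%, against 19.2%. In Stat6-/- cells the looser rule added no member to Fabp5, against 2.94% of genes higher and 2.79% lower.

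**Figure D2:**
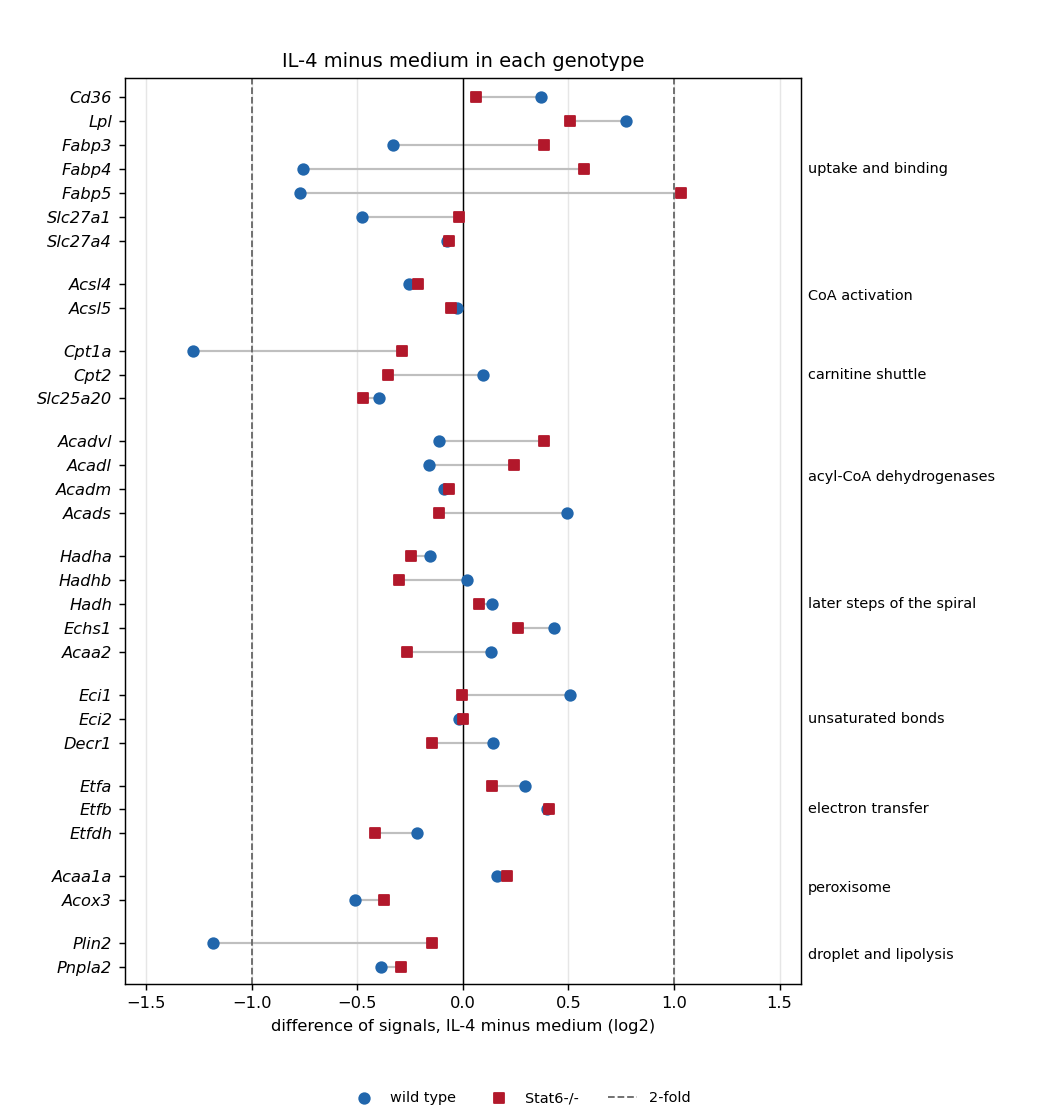
Difference of signals, IL-4 minus medium (log2), for each of the 31 genes: blue circles are wild type, red squares are Stat6-/-, a grey line joins both, and dashed lines mark 2-fold. Cpt1a and Plin2 lie past the left line in wild type, Fabp5 lies just past the right line in Stat6-/- cells, and for Fabp3, Fabp4 and Fabp5 the symbols stand on opposite sides of 0.

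In the contrast of both IL-4 effects, 3 of 31 members were lower by the rule, Fabp4, Fabp5 and Plin2, or 9.68%, against 5.77% of 10798 genes. None was higher, against 3.2%. At 1.5-fold Fabp3 and Cpt1a joined them, which made 5, or 16.1%, against 16.4% of genes. The other comparisons use the same 4 arrays, so this difference is no separate evidence. Fabp4 passed 2-fold, and Fabp3 1.5-fold, in this contrast only.

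The enzymes of the spiral were compared next. Acyl-CoA dehydrogenases take the first electrons from fatty acids of falling chain length. Acadvl, for very long chains, was at 4.90 untreated and 4.79 after IL-4 in wild type, and 4.85 and 5.24 in Stat6-/- cells, and Acadl, for long chains, was at 6.12, 5.96, 6.01 and 6.25. In both genes Stat6-/- with IL-4 was the highest array, by less than the rule. Acadm, for medium chains, lay between 6.45 and 6.62, and Acads, for short chains, was at 4.64, 5.14, 4.99 and 4.88. The contrast of the effects was 0.61 for Acads, the 1 member past 1.5-fold in the higher direction, or 3.23%, against 9.83% of genes.

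Hadha and Hadhb encode the subunits of the mitochondrial trifunctional protein, which carries out the later steps for long chains. Hadha was at 6.89 untreated and 6.74 after IL-4 in wild type, and 6.70 and 6.46 in Stat6-/- cells, and Hadhb was at 6.70, 6.72, 6.50 and 6.19. Both were lowest in Stat6-/- with IL-4, by -0.28 and -0.53 against wild type with IL-4. A second Hadhb probeset gave -0.55. The genes are direct neighbours on chromosome 5 and point away from each other, with 272 bases between their RefSeq starts. The 250 bases before the Hadha start (GRCm38.p6, chr5:30154981-30155230, minus strand) are shown because 228 of them also lie in the Hadhb window, read on the other strand.
Hadha: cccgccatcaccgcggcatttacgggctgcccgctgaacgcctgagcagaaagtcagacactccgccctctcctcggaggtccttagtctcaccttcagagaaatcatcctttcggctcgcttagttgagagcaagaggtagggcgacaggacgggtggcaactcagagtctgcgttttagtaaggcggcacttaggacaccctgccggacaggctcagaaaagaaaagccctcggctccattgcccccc
It holds no match to the motifs searched.

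For shorter chains, the hydratase Echs1 was at 5.43 untreated and 5.86 after IL-4 in wild type, and 5.17 and 5.43 in Stat6-/- cells. Hadh, the next dehydrogenase, lay between 6.38 and 6.52, and the thiolase Acaa2 was at 5.71, 5.84, 6.06 and 5.80. Eci1, Eci2 and Decr1 handle unsaturated fatty acids. Eci1 was at 4.33, 4.84, 4.28 and 4.28 in the same order, so the wild-type array with IL-4 was the high one. Decr1 was at 4.67, 4.82, 4.42 and 4.28, with both Stat6-/- arrays lower, and Eci2 lay between 4.52 and 4.68.

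Electrons from the dehydrogenases pass to the flavoprotein subunits Etfa and Etfb and then to Etfdh. Etfa was at 6.13 untreated and 6.42 after IL-4 in wild type, and 6.07 and 6.21 in Stat6-/- cells. Etfb was at 5.85, 6.25, 5.57 and 5.98, with IL-4 differences of 0.40 and 0.41, nearly equal in both genotypes. Etfdh went the other way at 6.38, 6.16, 6.61 and 6.19. None of these differences passed 1.5-fold. In peroxisomes, the oxidase Acox3 was at 6.53, 6.01, 6.63 and 6.25, lower with IL-4 in each genotype. The thiolase Acaa1a was at 4.15, 4.32, 4.49 and 4.71, and it was the 1 member with both Stat6-/- arrays above both wild-type arrays, or 3.23%, against 13.4% of genes with signal. Acaa1a has a close paralog, Acaa1b, and the probeset may read both, which was not tested. Acaa1b's own probeset was under the floor on all 4 arrays, between 1.63 and 2.06. In the opposite order, 10 members had both Stat6-/- arrays below both wild-type arrays, Cd36, Lpl, Acsl5, Cpt2, Acadm, Hadha, Hadhb, Eci1, Eci2 and Decr1, or 32.3%, against 24.7%.

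**Figure D3:**
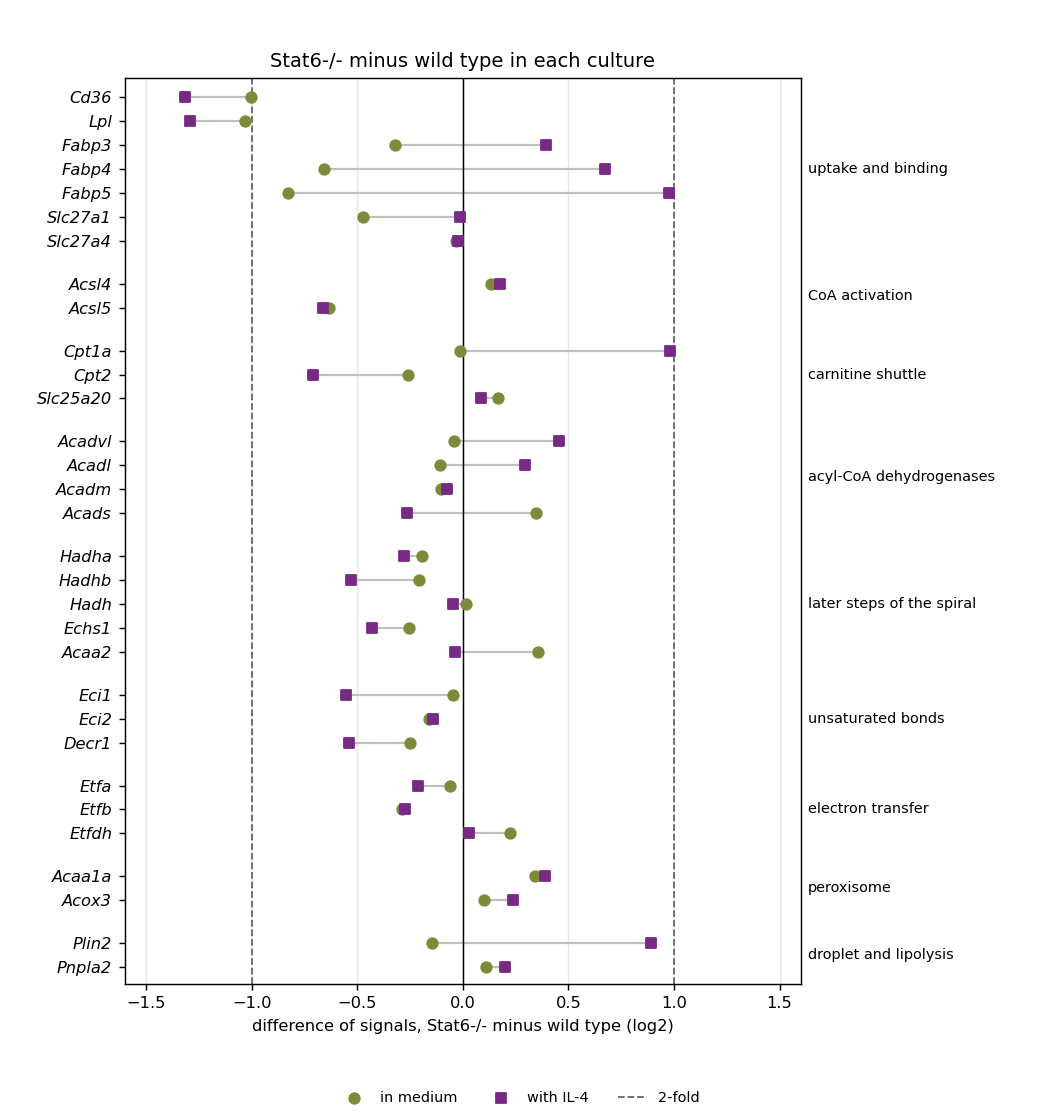
Difference of signals, Stat6-/- minus wild type (log2), for each of the 31 genes: green circles are in medium, purple squares are with IL-4, a grey line joins both, and dashed lines mark 2-fold. Cd36 and Lpl lie past the left line in both cultures, while Fabp5, Cpt1a and Plin2 lie between 0.89 and 0.98 with IL-4, short of the right line.

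Other lipid genes were counted from 4 lists. The lists were chosen with earlier results of these data known, so their shares are no test. Of 18 genes of fatty acid synthesis and desaturation, 14 could have passed in the wild-type IL-4 comparison, and 5 rose, against the 2.96% of all genes, and 0 fell, with a median of 0.56. Scd2, a desaturase that puts the first double bond into saturated fatty acids, was at 5.45 untreated and 8.52 after IL-4 in wild type, and 6.11 and 6.25 in Stat6-/- cells. It rose by 3.07, or 8.41-fold. The desaturase Fads2 rose by 1.94 and Acaca, the carboxylase that starts synthesis, by 1.48. Fads3 went from 2.41, under the floor, to 4.00, at least 2.78-fold. The fifth gene, Fasn, the fatty acid synthase, rose by 1.46. Like Fads3, Elovl6 was under the floor untreated, at 2.44, and could have passed only through the IL-4 array, at 3.30. It did not pass. In Stat6-/- cells 0 of 15 passed the rule, with a median of -0.19. With IL-4, 5 of 15 were lower in Stat6-/- than in wild type, against 4.83% of all genes, led by Scd2 (-2.26), Fasn (-1.94), Fads2 (-1.67) and Acaca (-1.66), and in medium 0 of 15 changed. The contrast of the effects was past the rule for 7 of 15 in the higher direction, against 3.2% of all genes, led by Scd2 (2.93), Fasn (2.10), Fads2 (1.85) and Acaca (1.83). With signals under the floor raised to it, 1 of the 7, Me1, was at 0.84 and no longer past the rule.

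Of 25 other oxidation genes that could have passed in wild type, Acot7, an acyl-CoA thioesterase, rose by 1.30 and Pdk2, a kinase that inhibits pyruvate dehydrogenase, fell by 1.10, with a median of -0.11. These are 1 of 25 in each direction, near the 2.96% of all genes that rose and the 6.78% that fell. In Stat6-/- cells 0 of 24 passed. With IL-4, Acot7 (-1.27) and the carnitine acetyltransferase Crat (-1.09) were lower in Stat6-/- cells, 2 of 24 against 4.83% of all genes, and in medium 0 of 24 changed. The difference between effects was higher by the rule for 3 of 25, against 3.2% of all genes, namely Acot7 (1.51), Crat (1.30) and Slc27a3, which was under the floor on 3 arrays and at 0.27 with signals raised to it.

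Of 18 storage and lipolysis genes, Lpin2, a phosphatidate phosphatase on the way to triglyceride, fell with IL-4 in wild type from 6.76 to 5.13, and 0 rose, with a median of 0.017. This 1 of 18 is near the 6.78% of all genes that fell. In Stat6-/- cells it was at 6.31 and 6.10. None of 18 passed there, nor did any of 17 and 19 in the genotype comparisons. The difference between effects was lower for Lpin2 (-1.42) and Lpin1 (-1.17) and higher for Plin1 (1.12), whose 4 signals lay between 2.59 and 3.19. These are 2 and 1 of 19 genes, against 5.77% and 3.2% of all genes. Of 11 regulators, Ppargc1b, a coactivator of mitochondrial genes, rose by 1.03 with IL-4 in wild type, 1 of 11 against 2.96% of all genes, with a list median of -0.033. In the other 4 comparisons 0 of 11 or 12 regulators changed.

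**Figure D4:**
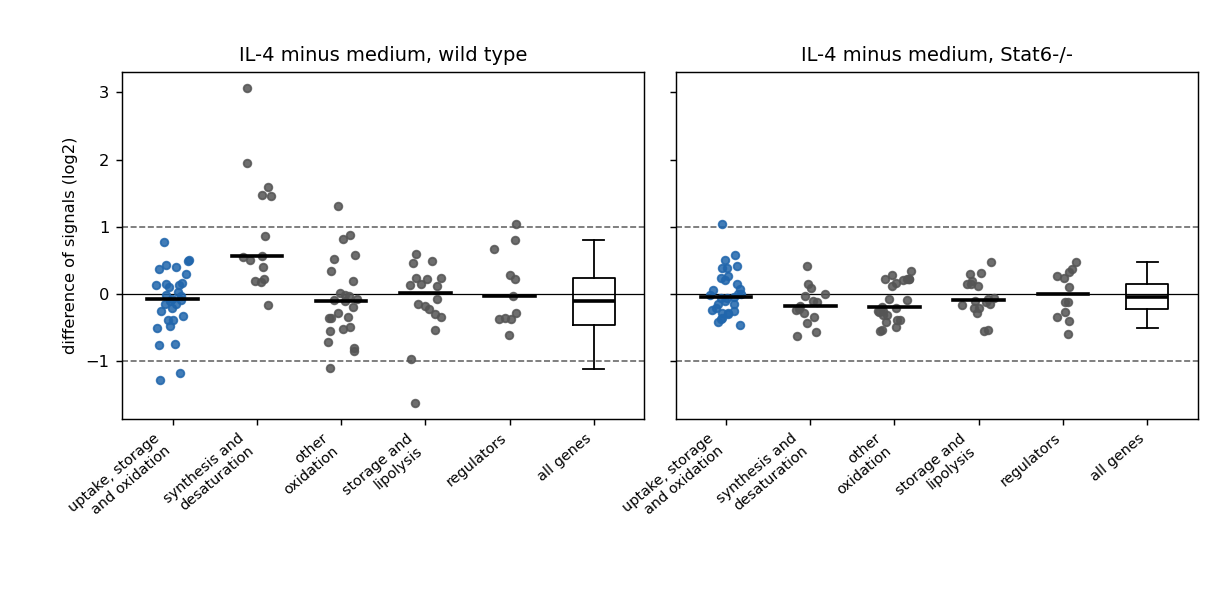
Difference of signals, IL-4 minus medium (log2), in wild type on the left and Stat6-/- on the right: each point is a gene that could have passed the rule, thick lines are medians, the box covers the middle quartiles of all genes with whiskers at the 5th and 95th percentiles, and dashed lines mark 2-fold. In wild type the synthesis and desaturation genes have a median of 0.56, above the -0.074 of the uptake, storage and oxidation genes.

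The cells carried macrophage markers on all arrays: 15 of 16 were at or above the floor on each, and Cd163 was under it on all 4. Their summed linear signal was 14613 untreated and 10232 after IL-4 in wild type, and 13403 and 13339 in Stat6-/- cells. The sum was thus lowest on the array where Cpt1a and Plin2 were lowest. With IL-4 in wild type, 4 of 15 macrophage markers fell, against 6.78% of all genes, and 0 rose. Among the 4 was Adgre1, which encodes the protein used for sorting, from 10.75 to 9.54. In Stat6-/- cells Adgre1 differed by -0.23. The part of these markers in the decrease of Cpt1a and Plin2 was not tested. Of 8 adipocyte markers, Adipoq, Lep, Cidec and Retn were under the floor on all arrays, and the summed signal lay between 32.7 and 37.7. Of 8 endothelial markers, Cdh5, Tek, Emcn and Esam were under it, and the sum was 59.7, 34.8, 52.6 and 48.6 in the same order of arrays. Of 7 osteoclast markers, 6 had signal and Calcr had none, and their sum was 143 untreated and 690 after IL-4 in wild type, and 69.9 and 65.9 in Stat6-/- cells. Cd36 and Lpl were lower in Stat6-/- cells together with these markers, and the part of the markers in that result was not tested. In such bulk samples, fewer cells of a type and less RNA per cell cannot be told apart. Markers under the floor on all arrays were 4 of 8 for fibroblasts, 4 of 6 for T cells and 4 of 5 for B cells. They were 6 of 8 for neutrophils and 5 of 6 for dendritic cells. For mast cells and basophils they were 5 of 6, and for erythroid cells 2 of 2. Of 4 fibroblast markers with signal, 1 rose by 1.84 with IL-4 in wild type, against 2.96% of all genes. With IL-4, 1 of 4 was lower in Stat6-/- cells, at -1.83, against 4.83%. The 1 neutrophil marker that could have passed fell by 1.04 with IL-4 in wild type, against 6.78%. Markers of the other types in these counts did not pass the rule.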

How the data were processed

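Each deposited value is a log2 signal of 1 probeset on 1 array, which the authors made with RMA in Affymetrix Expression Console per the submitters' processing notes. RMA corrects background, normalizes arrays by quantiles and summarises probes, and it compresses low signals. For versions, settings and build nothing is stated in the labels, and the log base was read from the range of the values. Of 35557 probesets, 21789 carried 1 gene symbol, 1621 carried more and 12147 carried no name in GEO's platform annotation as used here. The probeset with the highest mean over the 4 arrays stood for each gene. Differences were taken per gene with Python 3.11.15 and set against the 2-fold rule with the floor of 2.52, and a looser 1.5-fold rule was counted the same way. The script was tested on simulated data. Settings tried besides are given in the closing section, with lowess (statsmodels 0.14.6, fraction 0.3) for the intensity trend. All members are named, with up to 4 genes per list past the rule in each comparison, chosen by size. Fasn and Elovl6 in the wild-type IL-4 comparison and Me1 were named besides, after their values were seen. The members and lists were chosen with earlier results of these data known, and the search for AGGTCA was added after the promoters were seen. Promoters are RefSeq sequences of GRCm38.p6, found for 28 members, and were trimmed to the 250 bases before the start.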

Additional observations from a re-analysis of the deposited data

Results flagged for a closer look

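For Fabp5 and Fabp4 the IL-4 differences of the genotypes had opposite signs, at -0.77 in wild type and 1.03 in Stat6-/- cells for Fabp5, and at -0.76 and 0.57 for Fabp4. Of these 4 differences, the one of Fabp5 in Stat6-/- cells passed the 2-fold rule and the other 3 did not. On the second Fabp5 probeset it was 0.997, just short of the rule. Opposite signs were seen in 38.8% of all genes with signal. The difference between the effects, wild type minus Stat6-/-, was -1.80 for Fabp5 and -1.33 for Fabp4. With 1 array per group this difference was not tested. Fabp5 was well above the floor on all arrays, while Fabp4 lay near it.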

How the results depend on the processing

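No paired analysis was possible because each group holds 1 array. In place of a test, counts within 1.5-fold of the reported one and medians within 0.1 were taken as unchanged, over 8 alternative settings. Of 40 counts of members that were lower, 37 were unchanged by this measure, as were 36 of 40 counts of higher members and 34 of 40 medians. This measure also takes as unchanged the 3 members lower in the difference between the effects, whose number ran from 2 to 4. Of 80 values of members past the rule, 70 kept the call, 10 lost it and 0 changed direction. Many of these could not differ, as settings that alter the floor or average probesets cannot move a gene with 1 probeset well above the floor. In medium, where 2 members were lower in Stat6-/- cells, the number was 0 with quantile normalization applied again, 0 with the intensity trend removed and 1 with the offset of 16. With IL-4, where 0 members were higher in Stat6-/- cells, the number was 2 with repeated quantile normalization, 2 with the trend removed and 1 with probesets averaged per gene. The 1 member higher with IL-4 in Stat6-/- cells became 0 with the offset of 16. Under the repeated quantile normalization and the removal of the trend, the members' median became 0.084 and 0.077 for IL-4 in wild type, 0.020 and 0.056 for the genotypes in medium, and 0.12 and 0.11 for the difference between the effects. The cause was not tested, apart from the offset, which shrinks differences by construction. Signals near the floor, those of Fabp3 and Fabp4, limit what their differences can show. Lack of replicate arrays limits all values.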
